A study of Mus musculus with 12 samples.

Results

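Heat shock proteins, their J-domain partners, the cytosolic chaperonin and the Bag cochaperones were examined across invariant natural killer T (iNKT) cells of lung and thymus. The members were the 89 gene symbols, of 24781 in the expression table, that begin with Hspa, Hspb, Hspd, Hspe, Hsph, Hsp90, Dnaja, Dnajb or Dnajc, or with Cct2 to Cct8, or that read Bag1 to Bag6. The rule used no measured value. RNA was measured in 12 libraries of 100 sorted cells each, from mice at 6 weeks. All cells were TCRbeta+ NK1.1+ CD1d tet+ CXCR6+, and 4 groups of 3 libraries differed in tissue and in CD244: lung CD244-positive (C2), lung CD244-negative (C1), thymus CD244-positive (C2) and thymus CD244-negative (C1). No strain, transgene or treatment is named in the labels. The replicates are independent library preparations, and nothing says that they came from separate animals, so p-values measure how far these libraries scatter, and that scatter may be technical.

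Molecular chaperones bind unfolded protein and help it reach or regain its folded state. Hsp70 proteins hold exposed stretches of a client in a cycle driven by ATP, J-domain proteins (the Dnaja, Dnajb and Dnajc families) deliver clients and start that cycle, and Bag proteins release the nucleotide that ends it. Hsp90 takes over partly folded clients, many of them kinases and steroid receptors. The ring-shaped chaperonin CCT encloses actin and tubulin, and Hsp60 with Hsp10 forms the matching chamber in mitochondria. Most of these genes are transcribed in all cells, while a few, led by the inducible Hsp70 genes Hspa1a and Hspa1b, are kept low until heat shock factor 1 binds inverted GAA repeats in their promoters after heat or other stress to proteins.

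Values are molecules per 10000 molecules of the library. Libraries held 42520 to 51436 molecules in lung CD244-positive cells, 29696 to 32196 in lung CD244-negative cells, 56615 to 71789 in thymus CD244-positive cells and 60120 to 67478 in thymus CD244-negative cells. A gene with 0 molecules in 1 library may still have had a level of up to 0.418 per 10000 in the deepest library and up to 1.01 in the shallowest, which covers counting error only. Of the 89 members, 29 were detected in all 12 libraries, 44 in 1 to 11 and 16 in none. The 16 included Hspb1, Hspb2, Hspb3, Hspb7, Hspb8 and Hspb9, the small heat shock proteins that keep aggregating clients soluble. A value above 0.5 in at least 3 libraries was asked for before testing, which 40 members met, and the highest mean among the other 49 was 0.297 per 10000. Tests below refer to 1 limma model on log2(value + 0.5) over 4577 genes, with Benjamini-Hochberg adjustment over all of them and a threshold of 0.05. Fold changes on that scale understate the change of low genes.

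Summed levels of cell type marker genes, those of T cells included, differed between the groups, by tissue or by CD244. The list called T cell receptor complex genes (11 of 14 listed were in the table) is wider than the receptor itself. Beside receptor genes it names Lck, Zap70, Lat, Cd2, Cd5, Cd6 and Thy1, which are not receptor subunits. The same list is used for a scaling below. Its genes summed to 12.9 to 24.2 per 10000 in lung CD244-positive, 34.3 to 40.0 in lung CD244-negative, 26.5 to 30.8 in thymus CD244-positive and 32.5 to 35.6 in thymus CD244-negative libraries. The 15 myeloid genes summed to 77.9, 139 and 140 per 10000 in the 3 lung CD244-positive libraries, against 1.01 to 2.65 in lung CD244-negative, 1.41 to 2.09 in thymus CD244-positive and 1.05 to 1.78 in thymus CD244-negative libraries. None of the 15 was at 0 in the lung CD244-positive group, whereas 11, Lyz2, Cd14, C1qa and Adgre1 among them, were at 0 in lung CD244-negative cells and 12 were at 0 in each thymus group. The 8 MHC class II and B cell genes summed to 48.9 to 126 per 10000 in lung CD244-positive libraries, against 0.332 to 0.621 in lung CD244-negative libraries. The 5 lung epithelium genes summed to 1.02 to 3.35 per 10000 in lung CD244-positive libraries and 1.63 to 3.37 in lung CD244-negative libraries, whereas thymus CD244-positive libraries had 0 to 0.158 and all 5 genes were at 0 in thymus CD244-negative libraries. The 1 of the 5 that was tested, Scgb1a1, was higher in lung than in thymus by 1.58 ± 0.38 in CD244-positive cells (adjusted p = 0.00172, limma) and by 2.001 ± 0.38 in CD244-negative cells (adjusted p = 0.000138). The 6 NK cell genes summed to 13.3 to 26.6 in lung CD244-positive against 0.621 to 1.01 in lung CD244-negative libraries, and to 8.98 to 9.46 in thymus CD244-positive against 0.523 to 1.37 in thymus CD244-negative libraries. Most of the CD244-positive sums came from Gzma, Fcer1g and Tyrobp. These averaged 9.04, 5.37 and 4.48 in lung CD244-positive and 5.08, 3.75 and 0.362 in thymus CD244-positive cells. Ncr1, also on the list, was at 0 in lung CD244-negative cells and in both thymus groups. Whether these RNAs came from the sorted cells or from other cells was not tested, nor was their part in the results that follow. The libraries of the lung CD244-positive group also differed more from each other than replicates elsewhere did, with a chi-square per degree of freedom of 1.65 to 1.70, against 1.09 to 1.23 in the other groups.

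The inducible Hsp70 genes Hspa1a and Hspa1b had the largest fold changes of the tested members between lung and thymus CD244-positive cells and were not detected in thymus. They are neighbouring copies on the minus strand of chromosome 17 (mm10, GENCODE M21): Hspa1a lies at chr17:34969190-34972156 and Hspa1b at chr17:34956436-34959238, with 9951 bases between them. Each is a protein-coding gene of 1 exon. Their coding sequences, of 1926 and 1929 bases, are 99.5% identical, while the annotated 3′ UTRs, of 810 and 643 bases, are 51.4% identical. The 250 bases before the start of each gene differ at 3 positions and hold 1 inverted GAA repeat, GAANNTTC, with 96 bases between it and the start. Those windows are printed with that of Dnaja1, which also passed a test, and that of Hspe1, which passed none but holds overlapping repeats. Sequences are RefSeq's (GRCm38.p6), 5′ to 3′ on the gene's strand, with the repeats in capitals. Hspa1a spans chr17:34972157-34972406 (-), Hspa1b chr17:34959239-34959488 (-), Dnaja1 chr4:40722218-40722467 (+), the first of 3 listed starts, and Hspe1 chr1:55087898-55088147 (+). Of the Dnaja1 windows only the first holds a repeat, and those of Dnajb1 hold none.

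Hspa1a: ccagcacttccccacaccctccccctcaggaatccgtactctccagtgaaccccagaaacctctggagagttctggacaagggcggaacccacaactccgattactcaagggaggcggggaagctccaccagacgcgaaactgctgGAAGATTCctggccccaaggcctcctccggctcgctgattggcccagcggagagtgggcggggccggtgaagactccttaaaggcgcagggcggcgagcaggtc
Hspa1b: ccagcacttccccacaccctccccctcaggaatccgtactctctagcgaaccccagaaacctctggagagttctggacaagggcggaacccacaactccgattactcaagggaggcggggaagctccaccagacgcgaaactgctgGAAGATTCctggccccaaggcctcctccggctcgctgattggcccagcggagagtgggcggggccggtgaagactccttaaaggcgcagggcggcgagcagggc
Dnaja1: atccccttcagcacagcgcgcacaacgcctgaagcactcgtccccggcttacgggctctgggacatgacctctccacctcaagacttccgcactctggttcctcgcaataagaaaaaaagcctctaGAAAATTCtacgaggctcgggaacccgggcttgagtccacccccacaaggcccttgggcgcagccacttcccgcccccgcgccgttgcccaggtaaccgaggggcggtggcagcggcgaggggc
Hspe1: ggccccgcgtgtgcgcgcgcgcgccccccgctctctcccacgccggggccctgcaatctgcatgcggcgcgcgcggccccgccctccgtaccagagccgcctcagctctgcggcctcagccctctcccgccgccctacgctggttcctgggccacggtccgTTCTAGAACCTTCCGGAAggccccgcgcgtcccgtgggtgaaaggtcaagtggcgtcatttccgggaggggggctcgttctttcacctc

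Both strands were read for GAANNTTC, for TTCNNGAA and for GAANNTTC followed directly by NNGAA, a form of 3 repeats that contains both of the shorter ones. In the Hspe1 window the repeats overlap in 1 run, and 2 of its matches are to the 3-repeat form on 1 or the other strand. GAANNTTC occurred in the windows of 13 of the 73 members with an entry (17.8%), against 7.73% of all 27025 genes. TTCNNGAA occurred in 7 of 73 (9.59%), against 8.11% of all genes. The 3-repeat form occurred in Dnajb6, Hspd1 and Hspe1, 4.11% of the 73, against 0.514% of all genes. Hspd1 and Hspe1 are transcribed in opposite directions from neighbouring starts on chromosome 1, and their windows share that stretch. A match is a string of letters and not a measured binding site.

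Hspa1a had 2.05, 1.88 and 1.52 molecules per 10000 in the lung CD244-positive libraries and 0.842, 0 and 0 in the lung CD244-negative libraries, and it was at 0 in all 3 thymus CD244-positive and all 3 thymus CD244-negative libraries. Hspa1b had 2.05, 1.18 and 3.08 per 10000 in lung CD244-positive and 0.505, 0.995 and 1.24 in lung CD244-negative libraries, and it too was at 0 in the 6 thymus libraries. Every lung library thus held molecules of at least 1 of the pair and no thymus library held any. The 6 thymus libraries together had 386307 molecules, and 0 of them allows a summed level of up to 0.0777 per 10000. The copies cannot be read apart with certainty, because some molecules were divided between them: lung CD244-negative library 1 had 2.5 molecules of Hspa1a and 1.5 of Hspa1b, which sum to 4.

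Summed, the pair averaged 3.92 ± 0.79 molecules per 10000 in lung CD244-positive cells and 1.19 ± 0.18 in lung CD244-negative cells (SD, n = 3 each). The libraries were at 4.09, 3.06 and 4.60 in lung CD244-positive and at 1.35, 0.995 and 1.24 in lung CD244-negative cells, with no overlap. The molecules, 56.7 in lung CD244-positive and 11 in lung CD244-negative libraries, gave a ratio of 3.32, with an exact 95% interval of 1.73 to 7.06 that covers counting error only. Against thymus, 3 molecules were put in place of the 0 in each thymus group. The pair was then 25.4-fold higher in lung CD244-positive than in thymus CD244-positive cells. In lung CD244-negative against thymus CD244-negative cells it was 7.75-fold higher. Both values take the lung molecules as counted, without their counting error, so neither is a lower limit of the fold change. In bulk samples, fewer cells that carry an RNA and less of it per cell cannot be told apart.

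**Figure D1:**
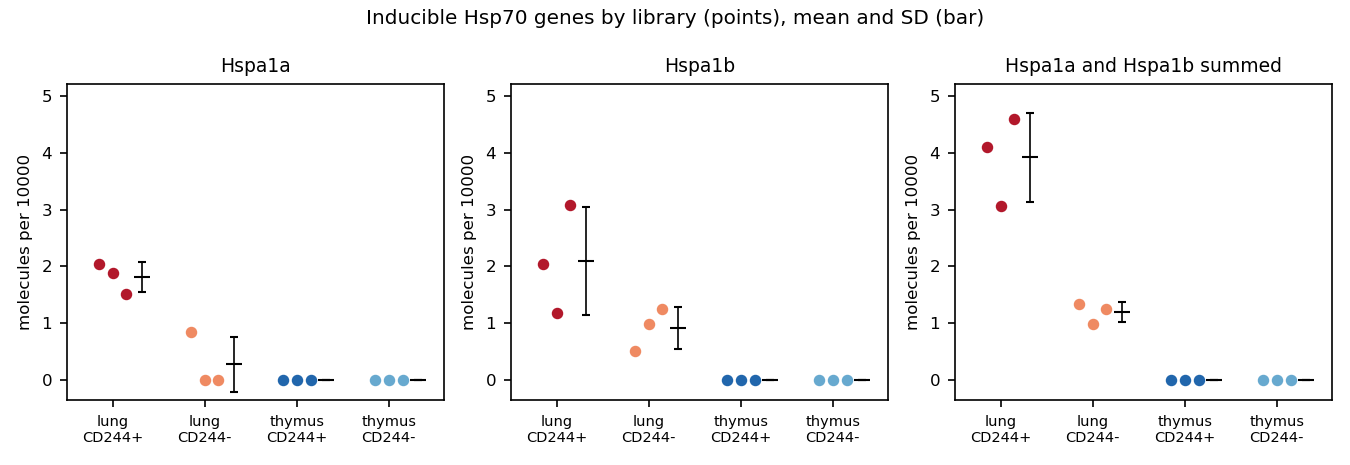
Molecules of Hspa1a, of Hspa1b and of both summed per 10000 molecules of the library, on a linear axis. Each point is a library, with the mean (cross bar) and SD (line) of the 3 libraries beside it. The summed values sit at 3.06 to 4.60 in lung CD244-positive libraries, against 0.995 to 1.35 in lung CD244-negative libraries, and at 0 in all 6 thymus libraries.

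Counted as 1 gene in a limma fit added after the values were seen, the pair was higher in lung CD244-positive than in lung CD244-negative cells by 1.37 ± 0.36 on the log2(value + 0.5) scale (SE, adjusted p = 0.00563). In a fit of the 6 lung libraries alone the difference was 1.37 ± 0.35 (adjusted p = 0.00334, limma), and it passed in every other setting in which the pair was run, with adjusted p-values of at most 0.0417. Between tissues the differences were 3.13 in CD244-positive cells and 1.76 in CD244-negative cells, lung minus thymus. These are given as sizes only, because the pair was tested through the lung libraries in which it is high and has no spread at 0 in thymus. For the same reason the CD244 effect in lung minus that in thymus was the lung difference itself, 1.37 ± 0.51 (adjusted p = 0.139, limma).

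Taken apart, the copies split the calls. Hspa1a was higher in lung CD244-positive than in lung CD244-negative cells by 1.73 ± 0.38 (adjusted p = 0.000597, limma), whereas Hspa1b differed by 0.85 ± 0.37 (adjusted p = 0.148, limma), with libraries that overlap. Between tissues, lung minus thymus, Hspa1a differed by 2.21 and Hspa1b by 2.31 in CD244-positive cells, and Hspa1a by 0.47 and Hspa1b by 1.46 in CD244-negative cells. Hspa1b and not Hspa1a passed in CD244-negative cells, and both passed in CD244-positive cells. The differences between the copies were not tested. Both copies passed the filter only through lung libraries, so their calls against thymus, at 0, are no support for a difference beyond the molecules given above. Hspa1a met the filter only with the lung CD244-positive libraries, where it is high, and was at 0 in lung CD244-negative libraries 2 and 3. A 0 there allows up to 0.995 and 0.932 per 10000, so its call in lung likewise adds no support beyond the molecules.

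Of the 40 tested members, Hspa1a alone passed in lung CD244-positive against lung CD244-negative cells, where 7.08% of all tested genes were called higher and 3.95% lower. In lung against thymus CD244-positive cells Hspa1a and Hspa1b passed, with 7.8% of tested genes called higher and 4.5% lower. In lung against thymus CD244-negative cells Hspa1b and Dnaja1 passed, with 3.58% called higher and 3.3% lower. No member passed in thymus CD244-positive against thymus CD244-negative cells in limma or in edgeR, where limma called 0.262% of tested genes higher and 0.0655% lower; 1 member, Hspbp1, had an unadjusted limma p under 0.05. In the test of the CD244 effect in lung against that in thymus Hspa1a passed, with 3.47% of tested genes called higher and 0.765% lower. All called members were higher in the first-named group. As shares of the 40 they were 2.5%, 5%, 5%, 0% and 2.5%, in the order given, against 11%, 12.3%, 6.88%, 0.328% and 4.24% of all tested genes called in either direction, so calls were no more frequent among the members than among all genes. Members with an unadjusted limma p under 0.05 numbered 4, 5, 5, 1 and 1 of 40, against 23%, 22.5%, 18.7%, 4.26% and 13.9% of all tested genes. The median log2 fold change of the 40 was -0.05, 0.02, -0.01, -0.13 and -0.01 in the same order of comparisons, and that of all tested genes lay between -0.01 and 0.02. A member that is low in 1 group could enter the 40 through another, so these counts describe the tested members and not all 89.

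**Figure D2:**
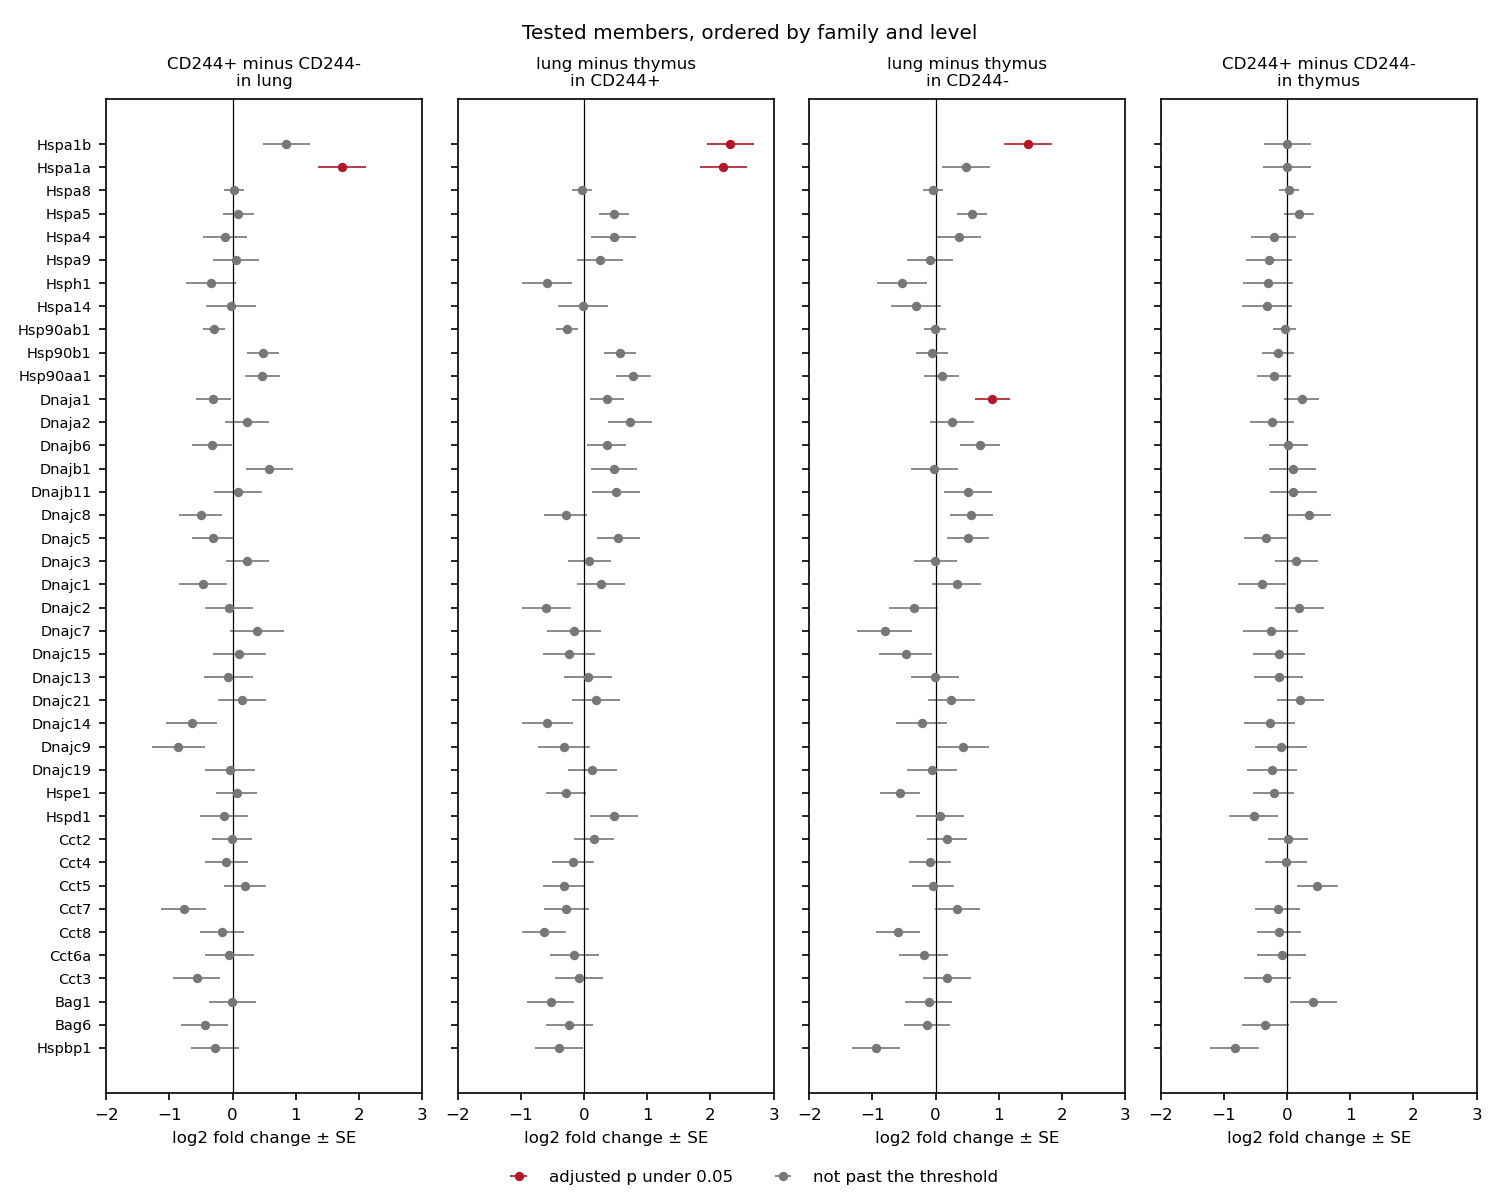
Log2 fold change with its SE for the 40 tested members in 4 comparisons, from the limma model on log2(value + 0.5), with members ordered by family and level from top to bottom. Red marks an adjusted p under 0.05 and grey the rest, and the red points are Hspa1a in lung, Hspa1a and Hspa1b in CD244-positive cells, Hspa1b and Dnaja1 in CD244-negative cells, and none in thymus.

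Immediate early genes, which respond quickly to stimulation and also to tissue dissociation, differed between the same groups as the inducible pair. The 29 immediate early and dissociation genes summed to 102, 118 and 115 per 10000 in lung CD244-positive libraries, 65.4 to 70.5 in lung CD244-negative, 21.3 to 24.9 in thymus CD244-positive and 23.8 to 24.9 in thymus CD244-negative libraries. Of the 27 tested, limma called 13 higher in lung CD244-positive than in lung CD244-negative cells, 20 higher in lung than in thymus CD244-positive cells, and 9 higher and 1 lower in lung than in thymus CD244-negative cells. As shares of the 27, the genes called higher or lower were 48.1%, 74.1% and 37%, against 11%, 12.3% and 6.88% of all tested genes. The list was chosen with earlier results of these data known, so these shares describe it and are no support for a difference. Fos, Fosb, Ier3, Atf3 and Nr4a2 were at 0 in both thymus groups and entered the 27 only through lung libraries. The sum covers genes of unlike pattern. Fos averaged 9.26 ± 0.34 per 10000 in lung CD244-positive and 0.544 ± 0.510 in lung CD244-negative cells, whereas Junb averaged 11.8 ± 1.9 and 15.5 ± 2.6. The part of the immediate early genes or of the myeloid genes in the differences of Hspa1a and Hspa1b was not tested.

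The 5 tested genes outside the families whose log2 values most resembled the mean of Hspa1a and Hspa1b over the 12 libraries were Gch1 (Pearson r = 0.980), Fos (0.962), Mt1 (0.962), Jun (0.959) and Cebpb (0.956). The correlation is a description over 4 groups that share tissue and preparation. Gch1, the first enzyme of tetrahydrobiopterin synthesis, averaged 1.03 ± 0.29 per 10000 in lung CD244-positive, 0.326 ± 0.014 in lung CD244-negative, 0 in thymus CD244-positive cells and 0.0499 ± 0.0863 in thymus CD244-negative cells. Mt1, a metal-binding metallothionein, had 9.21, 4.70 and 12.8 per 10000 in lung CD244-positive and 0.673, 0 and 0.621 in lung CD244-negative libraries, and was at 0 in all 6 thymus libraries. Fos and Jun, the partners of the AP-1 transcription factor, averaged 9.26 ± 0.34 and 3.90 ± 0.90 in lung CD244-positive cells (SD, n = 3).

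**Figure D3:**
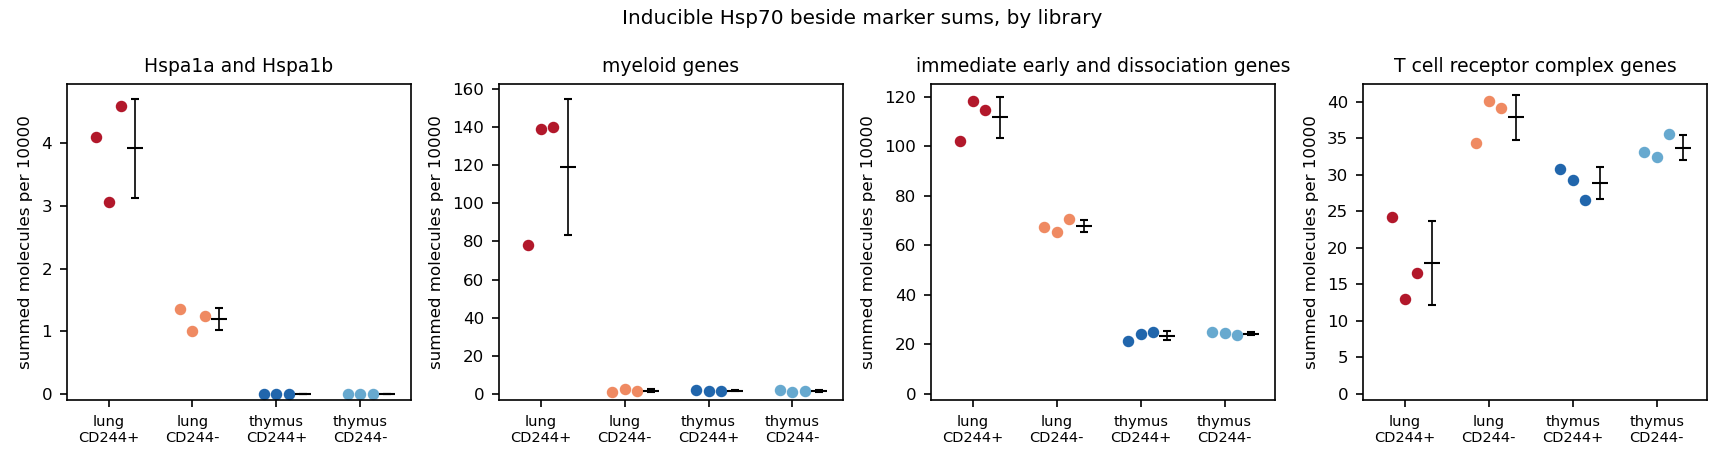
Summed molecules per 10000 of Hspa1a and Hspa1b, of 15 myeloid genes, of 29 immediate early and dissociation genes, and of the T cell receptor complex genes, on linear axes. Points are libraries, with the mean and SD of each group of 3. The sums of the inducible pair and of the immediate early genes are graded over lung CD244-positive, lung CD244-negative and thymus libraries. The myeloid sum is high in the lung CD244-positive libraries alone.

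The constitutive Hsp70 Hspa8, which folds new chains and strips clathrin from vesicles, was the most abundant member, with a mean of 18.6 molecules per 10000 over the 12 libraries. Complementary DNA was primed at poly(A) with a primer that carries a molecular identifier, so no correction for gene length was applied to this ranking. How the molecules were counted is not given. Hspa8 took 21.6% of all members' molecules and ranked 85th among all genes, and the first 5 members, Hspa8, Hsp90ab1, Hspa5, Hsp90b1 and Dnaja1, took 50.3%. Hspa8 had 18.8, 18.3 and 17.9 per 10000 in lung CD244-positive, 19.9, 13.6 and 21.7 in lung CD244-negative, 22.8, 14.8 and 19.8 in thymus CD244-positive and 17.5, 19.1 and 18.96 in thymus CD244-negative libraries. The 4 groups overlap and their means lie between 18.4 and 19.1. Its log2 fold change was 0.02 ± 0.16 for CD244 in lung, -0.04 ± 0.16 for tissue in CD244-positive cells, -0.04 ± 0.16 for tissue in CD244-negative cells and 0.03 ± 0.16 for CD244 in thymus (SE). None of these passed. With libraries set to equal T cell receptor complex sums (the T cell receptor scale), which raises all genes of the lung CD244-positive libraries, the tissue difference in CD244-positive cells turned to 0.68 (adjusted p = 0.0237, limma) and that for CD244 in lung to 1.12 (adjusted p = 0.000113). With values as deposited the tissue differences were -0.50 in CD244-positive cells (adjusted p = 0.0156, limma) and -0.50 in CD244-negative cells (adjusted p = 0.0222).

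Of the cytosolic Hsp90 genes, Hsp90ab1 differed little between groups and Hsp90aa1 was highest in lung CD244-positive cells. Hsp90ab1, the constitutive form, had 8.39, 10.1 and 11.7 per 10000 in lung CD244-positive, 13.8, 13.4 and 10.2 in lung CD244-negative, 13.1, 11.2 and 12.2 in thymus CD244-positive and 13.4, 11.2 and 13.0 in thymus CD244-negative libraries. Its log2 fold changes lay between -0.30 and -0.01, and none passed. Hsp90aa1, the heat-inducible form, had 7.16, 3.998 and 3.69 per 10000 in lung CD244-positive, 2.69, 4.64 and 2.80 in lung CD244-negative, 3.06, 2.36 and 2.30 in thymus CD244-positive and 3.11, 2.99 and 2.99 in thymus CD244-negative libraries. All 3 lung CD244-positive libraries were above the 3 thymus CD244-positive libraries, and library 1 stood above the rest.

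The tissue difference of Hsp90aa1 in CD244-positive cells, 0.78 ± 0.28, missed the threshold in limma (adjusted p = 0.0511). It passed in 11 of 25 other settings, with adjusted p-values between 0.000321 and 0.493 over all of them, and without lung CD244-positive library 1 it was 0.51 (adjusted p = 0.336). Among the molecules of both cytosolic forms, Hsp90aa1 made up 46.1%, 28.3% and 24.1% in lung CD244-positive, 16.3%, 25.7% and 21.4% in lung CD244-negative, 18.97%, 17.4% and 15.9% in thymus CD244-positive and 18.8%, 21.1% and 18.8% in thymus CD244-negative libraries. The lung CD244-positive share exceeded the thymus CD244-positive share by 15.4 points (two-sided exact permutation p = 0.1, the smallest that 3 against 3 libraries allow, and 0.4 after adjustment over 4 comparisons). The exact permutation p was 0.2 for CD244 in lung, 0.6 for tissue in CD244-negative cells and 0.3 for CD244 in thymus.

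Among the other Hsp70 relatives, Hspa4 and Hsph1 act as nucleotide exchange factors for Hsp70, and Hspa14 binds ribosomes. Hspa4 averaged 1.65 ± 0.62 per 10000 in lung CD244-positive, 1.92 ± 1.07 in lung CD244-negative, 1.07 ± 0.49 in thymus CD244-positive cells and 1.29 ± 0.37 in thymus CD244-negative cells. Hsph1, a classical heat-inducible gene, averaged 0.402 ± 0.507 in lung CD244-positive, 0.549 ± 0.207 in lung CD244-negative, 0.789 ± 0.548 in thymus CD244-positive cells and 1.06 ± 0.51 in thymus CD244-negative cells (SD, n = 3). No comparison of either passed, and the Hsph1 means lie in the opposite order to those of Hspa1a and Hspa1b, within their spread. The testis-biased relatives Hspa1l and Hspa2 were each detected in 1 library.

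**Figure D4:**
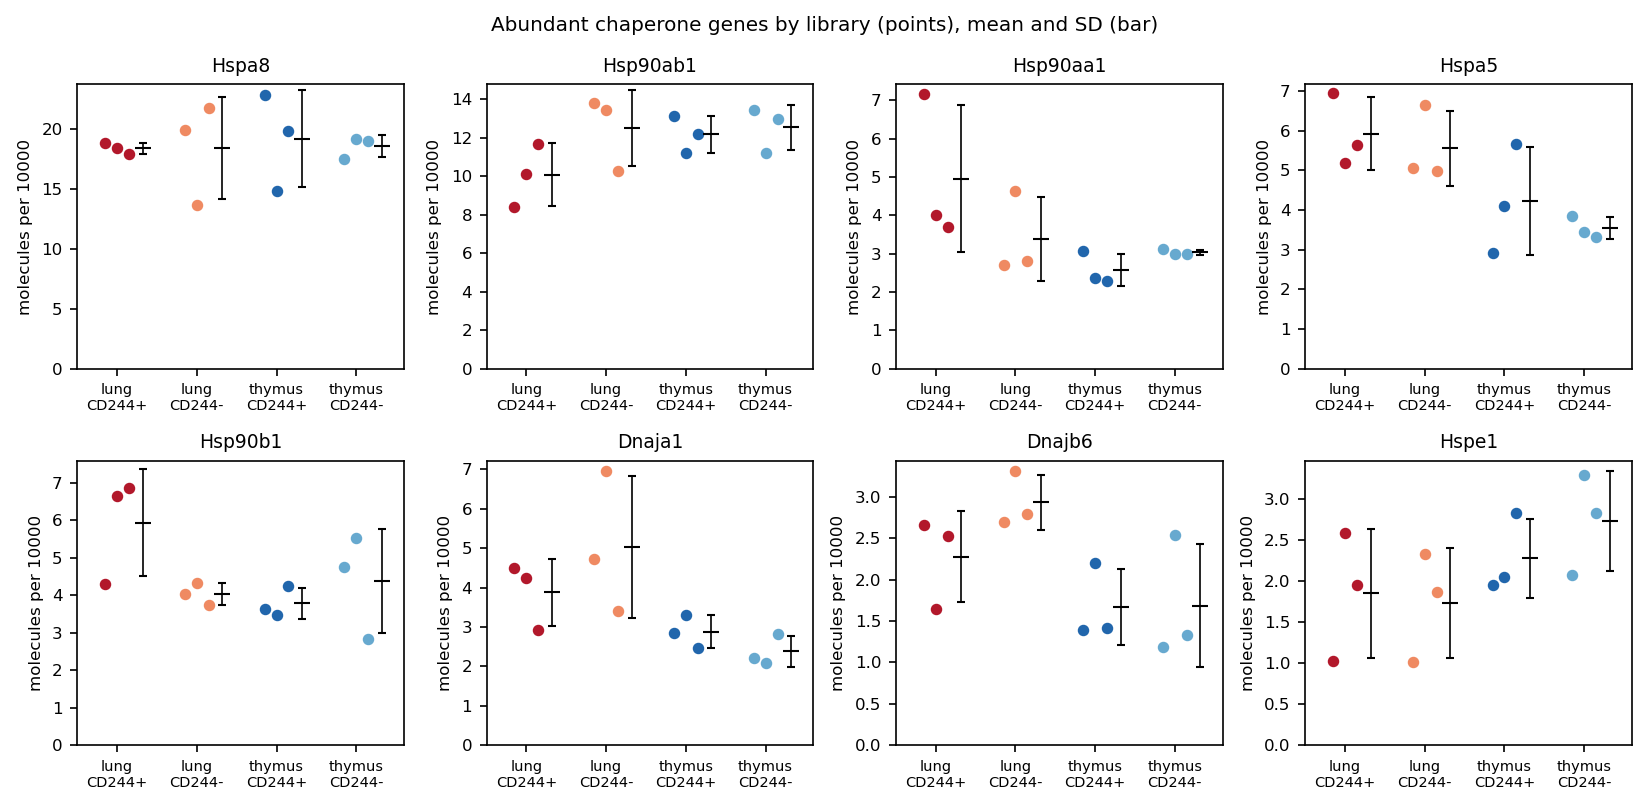
Molecules per 10000 of 8 abundant chaperone genes by library (points), with the mean and SD of each group of 3, on linear axes from 0. Hspa8 lies at 13.6 to 22.8 with overlapping groups, Hsp90aa1 and Hsp90b1 reach their highest values in lung CD244-positive libraries, and Dnaja1 is higher in all 3 lung CD244-negative than in all 3 thymus CD244-negative libraries.

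In the endoplasmic reticulum, Hspa5 (BiP) is the Hsp70 and Hsp90b1 (Grp94) is the Hsp90, which is needed to fold Toll-like receptors and integrins. Hspa5 had 6.96, 5.17 and 5.64 per 10000 in lung CD244-positive, 5.05, 6.63 and 4.97 in lung CD244-negative, 2.93, 4.10 and 5.65 in thymus CD244-positive and 3.85, 3.44 and 3.33 in thymus CD244-negative libraries. It differed between lung and thymus by 0.47 ± 0.24 in CD244-positive cells (adjusted p = 0.240, limma) and by 0.57 ± 0.24 in CD244-negative cells (adjusted p = 0.168), where the libraries did not overlap. Hsp90b1 had 4.30, 6.64 and 6.85 per 10000 in lung CD244-positive, 4.04, 4.31 and 3.73 in lung CD244-negative, 3.62, 3.47 and 4.24 in thymus CD244-positive and 4.74, 5.53 and 2.83 in thymus CD244-negative libraries. Its tissue difference in CD244-positive cells was 0.57 ± 0.25 (adjusted p = 0.152, limma), again with no overlap. The edgeR fit on the molecules of all 12 libraries, added after the data were seen, called 35.4% of 1113 genes in this comparison. Of the 15 members it tested it called 4, Hspa5, Hsp90b1, Hsp90aa1 and Dnaja2, higher in lung than in thymus CD244-positive cells. The planned edgeR fit on 9 libraries called 25.7% of 1154 genes and 2 of 16 members, Hsp90aa1 and Hspa1b.

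The 8 members of the endoplasmic reticulum summed to 15.3 to 16.0 per 10000 in lung CD244-positive, 12.1 to 14.6 in lung CD244-negative, 9.47 to 12.7 in thymus CD244-positive and 8.32 to 13.2 in thymus CD244-negative libraries. Lung CD244-positive libraries lay above the lung CD244-negative and the thymus CD244-positive libraries without overlap. The order of the 2 lung groups and of the CD244-positive groups was kept on the deposited scale and on the T cell receptor scale, whereas lung and thymus CD244-negative cells changed order on the deposited scale (11.2 in lung and 12.7 in thymus). Of 16 other genes of endoplasmic reticulum folding, 12 were tested. Canx (1.05 ± 0.32, adjusted p = 0.0199), Sdf2l1 (1.17 ± 0.37, adjusted p = 0.0305) and Xbp1 (1.11 ± 0.38, adjusted p = 0.0440) were higher in lung CD244-positive than in lung CD244-negative cells in limma, and Calr (0.93 ± 0.29, adjusted p = 0.0201) and Xbp1 (1.39 ± 0.38, adjusted p = 0.00579) were higher in lung than in thymus CD244-positive cells. Canx and Calr are the lectin chaperones calnexin and calreticulin, and Xbp1 is the transcription factor of the unfolded protein response. These calls are 25% of the 12 in lung and 16.7% between CD244-positive groups, against 11% and 12.3% of all tested genes. This list too was chosen with earlier results of these data known, so the shares are a description only. The 25% includes Sdf2l1, which averaged 0.692 ± 0.481 per 10000 in lung CD244-positive cells and 0 in lung CD244-negative cells. A 0 in 1 lung CD244-negative library allows up to 0.932 to 1.01 per 10000, so the Sdf2l1 call rests on values near the floor. None of the 12 passed in lung against thymus CD244-negative cells, in thymus, or in the test of the CD244 effect between tissues. The myeloid and MHC class II sums were high in the same lung CD244-positive libraries, and their part in these differences was not tested.

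Among the J-domain proteins, Dnaja1, a farnesylated partner of Hspa8 in the cytosol, passed in 1 comparison. It had 4.503, 4.23 and 2.92 per 10000 in lung CD244-positive, 4.71, 6.97 and 3.42 in lung CD244-negative, 2.86, 3.31 and 2.47 in thymus CD244-positive and 2.22, 2.09 and 2.83 in thymus CD244-negative libraries. Lung CD244-negative libraries lay above thymus CD244-negative libraries without overlap, by 0.90 ± 0.27 (adjusted p = 0.0285, limma). The call was lost in 10 of 25 other settings, among them without lung CD244-negative library 1 (adjusted p = 0.0517) or library 2 (0.195), and without thymus CD244-negative library 1 (0.109) or library 2 (0.124). In CD244-positive cells the difference was 0.36 ± 0.27 (adjusted p = 0.490), and the difference between the 2 subsets was not past the threshold (adjusted p = 0.581).

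Dnaja2, a second cytosolic partner, averaged 2.32 ± 1.18 per 10000 in lung CD244-positive, 1.87 ± 0.87 in lung CD244-negative, 1.12 ± 0.38 in thymus CD244-positive cells and 1.40 ± 0.32 in thymus CD244-negative cells, and Dnaja3 and Dnaja4 were not tested. Dnajb6, which suppresses aggregation, had 2.66, 1.65 and 2.53 in lung CD244-positive, 2.69, 3.32 and 2.80 in lung CD244-negative, 1.39, 2.21 and 1.41 in thymus CD244-positive and 1.19, 2.54 and 1.33 in thymus CD244-negative libraries. The lung CD244-negative libraries lay above every library of the other groups, yet the difference from thymus CD244-negative cells, 0.70 ± 0.31, did not pass (adjusted p = 0.199, limma). Dnajb1 (Hsp40), the heat-inducible partner of Hspa1a, had 1.02, 1.18 and 1.36 per 10000 in lung CD244-positive, 0.673, 0.995 and 0.311 in lung CD244-negative, 0.696, 0.946 and 0.530 in thymus CD244-positive and 0.296, 0.897 and 0.832 in thymus CD244-negative libraries. Its highest values were those of the lung CD244-positive libraries, with differences of 0.58 ± 0.37 from lung CD244-negative cells (adjusted p = 0.371, limma) and 0.47 ± 0.37 from thymus CD244-positive cells (adjusted p = 0.513).

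Summed over all 13 Dnajb genes, lung libraries lay above thymus libraries in both subsets, at 5.32 to 6.03 per 10000 in lung CD244-positive against 2.65 to 3.94 in thymus CD244-positive libraries, and at 5.05 to 6.30 in lung CD244-negative against 2.66 to 3.89 in thymus CD244-negative libraries. The 4 Dnaja genes summed to 6.50 ± 2.11 in lung CD244-positive against 4.51 ± 0.58 in thymus CD244-positive cells, and to 7.32 ± 2.39 in lung CD244-negative against 3.98 ± 0.53 in thymus CD244-negative cells, with overlap in CD244-positive cells. Group means of both sums kept this order on the deposited scale and on the T cell receptor scale. The 28 Dnajc genes, which include members with tasks other than folding, summed to 10.2 ± 1.1 in lung CD244-positive, 12.7 ± 1.4 in lung CD244-negative, 10.3 ± 0.2 in thymus CD244-positive cells and 11.3 ± 0.4 in thymus CD244-negative cells (SD, n = 3). Of the 12 Dnajc genes tested none passed. The highest were the splicing-associated Dnajc8 (mean 1.97), the vesicle protein Dnajc5 (1.52), Dnajc3 (1.32), an inhibitor of the kinase PERK in the endoplasmic reticulum, and Dnajc1 (0.855).

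In mitochondria, Hspd1 (Hsp60) and Hspe1 (Hsp10) form 1 folding chamber. Hspe1 had 1.02, 2.59 and 1.94 per 10000 in lung CD244-positive, 1.01, 2.32 and 1.86 in lung CD244-negative, 1.95, 2.05 and 2.83 in thymus CD244-positive and 2.07, 3.29 and 2.83 in thymus CD244-negative libraries. Hspd1 averaged 1.36 ± 0.46 in lung CD244-positive, 1.53 ± 0.43 in lung CD244-negative, 0.928 ± 0.719 in thymus CD244-positive cells and 1.70 ± 1.37 in thymus CD244-negative cells (SD, n = 3). Groups overlapped for both genes and no comparison passed. The mitochondrial Hsp70, Hspa9, averaged 0.749 to 1.02 in the 4 groups. Of 10 other genes of mitochondrial folding and proteolysis 3 were tested and none passed in any comparison.

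The cytosolic chaperonin is a double ring of 8 different subunits, Tcp1 (Cct1) and 7 genes of the Cct family. Its subunits summed to 8.47 to 12.1 per 10000 in lung CD244-positive, 10.9 to 13.7 in lung CD244-negative, 11.6 to 12.6 in thymus CD244-positive and 9.81 to 13.2 in thymus CD244-negative libraries, and the groups overlapped. Among the subunits, Cct2 had the highest mean in 3 of the 4 groups (2.44 in lung CD244-positive, 2.47 in lung CD244-negative and 2.04 in thymus CD244-negative cells) and Cct5 in thymus CD244-positive cells (2.31). Cct3 was lowest in 3 groups (0.614 in lung CD244-positive, 0.613 in thymus CD244-positive cells and 0.910 in thymus CD244-negative cells) and Cct6a in lung CD244-negative cells (0.955). These differences between subunits were not tested.

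No subunit passed in any comparison. The nearest was Cct7, at 1.43, 0.470 and 0.778 per 10000 in lung CD244-positive against 1.35, 2.65 and 1.55 in lung CD244-negative libraries, a difference of -0.77 ± 0.35 (adjusted p = 0.167, limma). Cct8 had 0.409, 0.941 and 1.17 in lung CD244-positive and 1.01, 1.33 and 0.621 in lung CD244-negative libraries, against 1.25, 2.21 and 1.24 in thymus CD244-positive and 2.22, 1.65 and 1.33 in thymus CD244-negative libraries. It was the 1 subunit with no overlap between tissues in both subsets, at -0.64 ± 0.35 in CD244-positive cells (adjusted p = 0.286, limma) and -0.60 ± 0.35 in CD244-negative cells (adjusted p = 0.378). Of 11 genes of Tcp1, the prefoldins and the phosducin-like helpers that serve CCT, 10 were tested. The prefoldin subunit Pfdn5 was lower in lung CD244-positive (2.19 ± 1.39) than in lung CD244-negative cells (4.99 ± 0.53), by -1.16 ± 0.29 (adjusted p = 0.00314, limma), and the rest did not pass in any comparison.

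**Figure D5:**
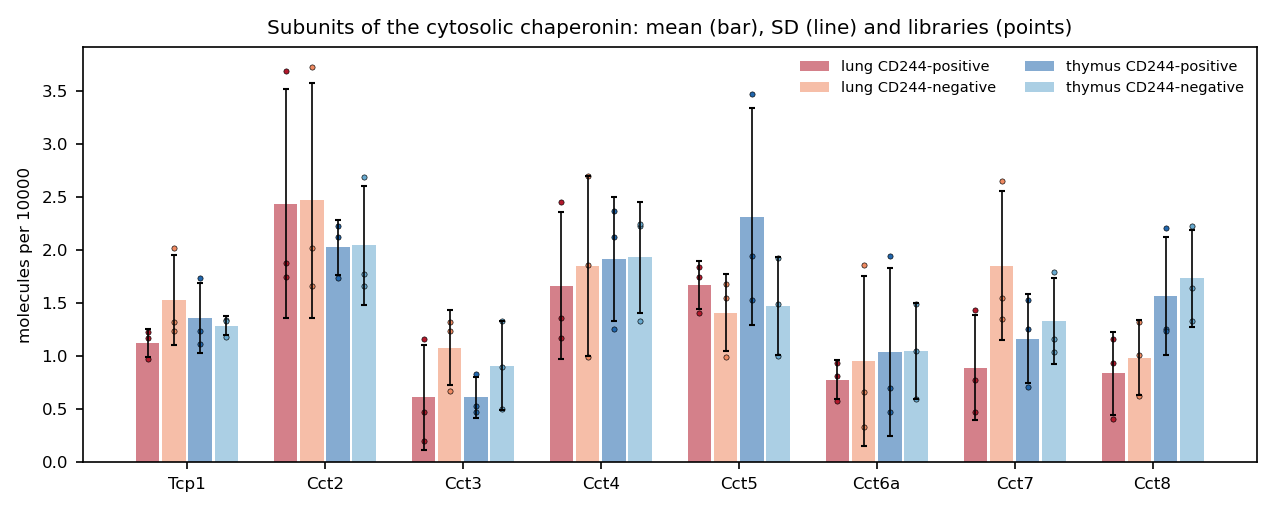
Molecules per 10000 of the 8 subunits of the cytosolic chaperonin, with the mean of 3 libraries (bar, from 0), the SD (line) and the libraries (points) for lung CD244-positive, lung CD244-negative, thymus CD244-positive and thymus CD244-negative cells. The libraries of most groups overlap, and the Cct8 means are lower in both lung groups than in both thymus groups.

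Among the Bag cochaperones, Bag1 had 0.819, 0.706 and 0.583 per 10000 in lung CD244-positive libraries and 0.836, 1.73 and 1.24 in thymus CD244-positive libraries, with no overlap, and a difference of -0.53 ± 0.37 (adjusted p = 0.450, limma). Bag6, which guards proteins bound for membranes, averaged 0.549 ± 0.390 in lung CD244-positive, 0.868 ± 0.182 in lung CD244-negative, 0.678 ± 0.041 in thymus CD244-positive cells and 1.03 ± 0.39 in thymus CD244-negative cells. Bag3, a heat-inducible partner of the small heat shock proteins, was detected in 4 libraries, Bag4 in 6 and Bag5 in 7, and Bag2 in none, and none of these 4 was tested. The nucleotide exchange factor Hspbp1, which the rule groups with the small heat shock genes by its symbol, had 0.557, 0.158 and 0.353 in thymus CD244-positive and 1.33, 0.598 and 1.16 in thymus CD244-negative libraries, a difference of -0.83 ± 0.38 with an unadjusted p of 0.0325 and an adjusted p of 1 in limma. Of the genes grouped with them, Hspb6, Hspb11 and Hspbap1 were detected in 1 to 3 libraries.

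Of 22 heat shock factors and Hsp90 cochaperones, 17 were tested. Fkbp5, an Hsp90 cochaperone induced by glucocorticoids, was higher in lung CD244-positive (1.14 ± 0.73) than in lung CD244-negative cells (0.207 ± 0.359), by 1.21 ± 0.39 (adjusted p = 0.0321, limma). It was lower in lung CD244-negative than in thymus CD244-negative cells (1.08 ± 0.17), by -1.27 ± 0.39 (adjusted p = 0.0323, limma). A 0 in 1 lung CD244-negative library allows a level of up to 0.932 to 1.01, above the mean of 0.207 there. Both Fkbp5 calls therefore rest on values near the floor. The other 16 passed in no comparison, and 1 of 17 (5.88%) lies below the 11% and 6.88% of all tested genes called in these comparisons.

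Over all 89 members, lung libraries held more chaperone RNA than thymus libraries at a common total. The sum was 88.9 to 91.1 per 10000 in lung CD244-positive against 76.0 to 81.8 in thymus CD244-positive libraries, and 89.8 to 93.4 in lung CD244-negative against 81.9 to 85.9 in thymus CD244-negative libraries. The gap was also present without Hspa1a and Hspa1b (84.3 to 88.0 in lung against 76.0 to 81.8 in thymus CD244-positive libraries, and 88.5 to 92.4 in lung against 81.9 to 85.9 in thymus CD244-negative libraries). It depended on the scale: on the deposited scale the order was the opposite in both subsets (75.4 in lung against 92.7 in thymus CD244-positive cells, and 76.3 in lung against 96.9 in thymus CD244-negative cells), and on the T cell receptor scale it was opposite in CD244-negative cells (71.6 in lung against 73.2 in thymus).

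Between groups the count of members whose 3 libraries lay wholly above or below the other 3 was near or below the share among all genes. In lung CD244-positive against lung CD244-negative cells 2 of 40 lay above (Dnajb1 and Hspa1a) and 1 below (Dnajb6), where 12.2% and 10.1% of all tested genes did. In lung against thymus CD244-positive cells 7 lay above (17.5%, against 15.2% of all) and 3 below (7.5%, against 12.5%). In lung against thymus CD244-negative cells 4 lay above (10%, against 11.3%) and 1 below (2.5%, against 10.1%). In thymus CD244-positive against thymus CD244-negative cells none lay above (5.62% of all) and Hspbp1 below (2.5%, against 6.27%).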

How the data were processed

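RNA was measured in 12 libraries of 100 sorted iNKT cells, 3 in each of 4 groups taken from the sample labels. Per the labels' protocols, complementary DNA was primed at poly(A) with a primer that carries a molecular identifier, made by template switching and amplified, with ERCC spike-in RNA added. The submitters' processing notes name STAR, with no version, and the mm10 build. How molecules were counted, with which annotation, and how columns were scaled is not given in the sources used here. The deposited values are a signal: molecules per gene times 1 constant per library. In each library 94.3% to 95.9% of nonzero values were whole multiples of the most frequent value (tolerance 1e-06), so molecules were recovered by dividing by it. The deposited totals differ between tissues (26890.5 in every thymus column and 19342.9 in every lung column), and the table holds 0 ERCC rows.

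Each library was rescaled to 10000. Genes above 0.5 in at least 3 libraries entered 1 limma model of log2(value + 0.5) over the 4 groups (limma 3.58.1 in R 4.3.3, trend and robust options), with 5 two-sided comparisons and Benjamini-Hochberg adjustment over all tested genes at 0.05. The alternatives were other scalings, filters, pseudocounts, weights and libraries, thinning, a replicate block, and edgeR 4.0.16 (quasi-likelihood, TMM) on molecules of the 9 libraries in which a search for the step between values, started at the smallest value, also found 1 molecule; all 12 hold some values under 1 molecule, and the search missed in the other 3. After the data were seen, edgeR on all 12 libraries and a fit with Hspa1a and Hspa1b as 1 gene were added. Both models were tested on simulated data.

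The genes named with values are every member that passed, the highest members of each family, and a set of heat-inducible members. The members and lists were chosen with earlier results of these data known. Depth was 29696 to 71789 molecules per library, and intervals and floors cover counting error only. Gene positions are from GENCODE M21, and promoter windows from RefSeq (GRCm38.p6), matched by symbol for 73 of the 89 members.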

Additional observations from a re-analysis of the deposited data

Results flagged for a closer look

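Hspa1a passed the test of whether its CD244 difference in lung differs from that in thymus, but the thymus value was set by the floor. Hspa1a had 2.05, 1.88 and 1.52 molecules per 10000 in lung CD244-positive and 0.842, 0 and 0 in lung CD244-negative libraries, and it was at 0 in all 3 thymus CD244-positive and all 3 thymus CD244-negative libraries. The CD244 effect in lung minus that in thymus was 1.73 ± 0.54 on the log2(value + 0.5) scale (SE, adjusted p = 0.0477, limma). The call was lost in 15 of 21 other settings, with adjusted p-values from 0.00264 to 0.214 over the 21. With Hspa1b counted together with it as 1 gene, the difference was 1.37 (adjusted p = 0.139, limma). With both thymus groups at 0, the thymus effect is 0 by the floor and the value equals the lung difference itself, so it does not show that the CD244 effect differs between the tissues.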

How the results depend on the processing

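Counts of called members are small, so 1 gene changes them. In thymus CD244-positive against thymus CD244-negative cells the count was 0 under every setting run. With limma as reported, 1 member was called in lung CD244-positive against lung CD244-negative cells. That count was 13 with libraries set to equal T cell receptor complex sums (the T cell receptor scale), 0 under the stricter filter, 2 with a pseudocount of 2, 0 in edgeR on 9 libraries and 0 in edgeR on 12, and 1 to 1 with 1 library left out. For lung against thymus CD244-positive cells (2 as reported) it was 5 as deposited (2 higher and 3 lower), 12 on the T cell receptor scale, 1 under the stricter filter and 4 in edgeR on 12 libraries, and 2 to 3 with 1 library left out. For lung against thymus CD244-negative cells (2 as reported) it was 4 as deposited (1 higher and 3 lower), 0 on the T cell receptor scale, and 1 under quantile normalization, no filter, the stricter filter, thinning, edgeR on 9 libraries and edgeR on 12. It was 1 to 2 with 1 library left out, and 1 without thymus CD244-negative library 1 or 2 or lung CD244-negative library 1. For the CD244 effect in lung against thymus (1 as reported) it was 4 on the T cell receptor scale and 0 as deposited, under quantile normalization, no filter, the stricter filter, a pseudocount of 0.25, thinning, edgeR on 9 and edgeR on 12 libraries, and 0 to 1 with 1 library left out (1 when library 3 of the lung CD244-positive group or library 1 of the lung CD244-negative group was left out, and 0 without any other). A fit of the compared libraries alone gives no value for it, since it uses all 4 groups.

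The stricter filter tested 12 members and edgeR 16 and 15, and neither edgeR fit tested Hspa1a. The T cell receptor scale moved the median of all genes by 0.69 in lung and by 0.48 between CD244-positive groups, and the deposited scale moved it by -0.26 and -0.27 between tissues. The Hspa8 tissue difference in CD244-positive cells, -0.04 as reported, reversed to 0.68 on the T cell receptor scale. With a replicate block the counts were 1 in lung, 0 in thymus, 2 and 2 between tissues and 1 for the difference of effects, as without it. Same-numbered libraries did not deviate together (r from -0.0337 to 0.0173 over 18 pairs), so the numbers gave no sign of pairing. Outside the lung CD244-positive group, replicates scattered little beyond counting error (chi-square per degree of freedom of 1.09 to 1.23). These correlations therefore cannot exclude that same-numbered libraries were paired. The causes of these changes were not tested beyond the numbers of genes and libraries given. Depth limits members below about 1 molecule per 10000, most of which were not tested.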
